A study of Mus musculus with 12 samples.

Results

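*Prf1*, *Gzma*, *Gzmb*, *Gzmk*, *Gzmm*, *Nkg7*, *Ctsw*, *Serpinb9*, *Ccl5* and *Xcl1* are 10 genes of the cytotoxic programme of T cells, and they were found by symbol among the 49585 genes of the raw count table. Cytotoxic lymphocytes kill by releasing granules in which perforin, the product of *Prf1*, opens the membrane of the target cell and granzymes, a family of serine proteases, enter it and trigger its death. Naive T cells have few such granules and load them after activation, while a memory-like fraction of CD8+ cells keeps some of these transcripts at rest. The 10 genes were followed in resting lymph node (LN) T cells of 4 groups with 3 samples each, and all 10 were above the counting floor in every sample.

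Mice of 2 strains were compared, both described in the labels as male and 6 to 10 weeks old, with no treatment named. B6 (C57BL/6) mice gave CD4+ and CD8+ T cells. CD8Dual mice, called 8in4 in the labels, make CD8 from both co-receptor loci. Their *Cd4* locus was changed so that it yields CD8 (α chain CD8α.1) in place of CD4, while their *Cd8* locus was left as it is (α chain CD8α.2), and the chains can be told apart by antibody. CD8.1 cells use the co-receptor from the *Cd4* locus and CD8.2 cells that from the *Cd8* locus, so that both populations carry CD8 and neither carries CD4 protein. B6 CD4+ and CD8.1 cells are called CD4-locus groups here, and B6 CD8+ and CD8.2 cells CD8-locus groups. The labels name a sort on TCRβ (antibody H57) and CD62L, the study's methods add a CD44− gate, and each sample was RNA from pooled sorted cells. Nothing says that replicates came from separate animals, so P values measure the spread between these samples only.

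The total count per sample was 18667474 to 37110502, and 3 counts, taken as the floor, equalled 0.0875 to 0.167 CPM, the unit of counts after TMM scaling to 1 library size for all samples. PCR copies of a molecule are counted as separate reads, so that this floor takes in counting error and nothing else. *Cd4* stood at 908 to 1004 CPM in B6 CD4+ cells and *Cd8a* at 1390 to 1479 CPM in B6 CD8+ cells, as their labels say. The 5 proliferation markers summed highest in B6 CD8+ replicate 3, where *Mki67* stood at 22.7 CPM against 2.36 to 11.2 CPM in the other 11 samples. The deepest library was CD8.2 replicate 3. In bulk RNA, a low level in every cell and a high level in a few cells cannot be told apart.

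The 10 genes lie on 7 chromosomes of the mouse genome GRCm38 (mm10), and the upstream bases of 4 of them are shown because these genes carry the contrasts described next: *Prf1* and *Gzmm*, which were higher in both CD8-locus groups to very different degrees, *Xcl1*, whose lineage difference was large in both strains, and *Gzmb*, which was highest in CD8.1 cells. The sequences come from RefSeq (GRCm38.p6), whose promoter table matched 8 of the 10 genes, and run 5′ to 3′ on the strand of the gene. They end before the annotated start, so that no transcribed base is included. Capitals mark the letters TGTGGT, a core bound by Runx factors, on either strand, where they read ACCACA on the other strand. In *Xcl1* the capitals also mark GGTGTGA, a T-box core. The *Prf1* bases are chr10:61297586-61297832 on the plus strand, those of *Gzmm* chr10:79688770-79689019 on the plus strand, those of *Xcl1* chr1:164935528-164935772 on the minus strand and those of *Gzmb* chr14:56262335-56262584 on the minus strand.
Prf1: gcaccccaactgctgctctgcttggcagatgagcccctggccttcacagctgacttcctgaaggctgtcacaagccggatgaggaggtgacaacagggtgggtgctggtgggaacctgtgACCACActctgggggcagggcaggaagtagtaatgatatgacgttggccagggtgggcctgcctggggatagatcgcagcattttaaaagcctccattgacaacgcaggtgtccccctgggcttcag
Gzmm: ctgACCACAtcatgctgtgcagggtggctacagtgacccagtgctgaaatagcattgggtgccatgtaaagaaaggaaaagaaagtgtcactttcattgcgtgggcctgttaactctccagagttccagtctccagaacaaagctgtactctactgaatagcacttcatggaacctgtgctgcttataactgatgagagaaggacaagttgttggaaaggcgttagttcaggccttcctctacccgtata
Xcl1: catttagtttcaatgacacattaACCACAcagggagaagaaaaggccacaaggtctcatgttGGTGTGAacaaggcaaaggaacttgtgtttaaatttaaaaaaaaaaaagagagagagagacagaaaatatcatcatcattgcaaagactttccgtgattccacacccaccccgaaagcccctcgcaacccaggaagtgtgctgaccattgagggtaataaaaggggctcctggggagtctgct
Gzmb: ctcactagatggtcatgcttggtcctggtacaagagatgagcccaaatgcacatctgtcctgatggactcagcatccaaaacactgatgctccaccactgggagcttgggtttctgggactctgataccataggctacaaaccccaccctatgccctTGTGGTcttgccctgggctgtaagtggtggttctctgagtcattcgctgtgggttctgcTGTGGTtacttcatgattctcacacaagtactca

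In the 250 bases before the RefSeq start, TGTGGT was found on either strand in 6 of the 8 genes (*Prf1*, *Gzma*, *Gzmb*, *Gzmm*, *Nkg7* and *Xcl1*) and was not found in *Gzmk* and *Serpinb9*. It was found in 14% of all 32851 promoter windows of that length. GGTGTGA was found in 4 of the 8 genes (*Gzmk*, *Gzmm*, *Nkg7* and *Xcl1*), against 3.33% of all windows, and the 2 motifs share no position in the sequences shown. Only in *Xcl1* did GGTGTGA lie before the outermost annotated start of the gene. In *Nkg7* it reached into the 65 bases that follow that start. The RefSeq starts behind the *Gzmk* and *Gzmm* matches lie 44943 and 4806 bases inside these genes, so that the 4 matches are not all upstream. *Gzmm* has 2 annotated starts, of which the upstream one is shown with its TGTGGT match, while GGTGTGA lies before the other. *Gzmb* had 2 TGTGGT matches and *Prf1* had 1, so that a gene higher in CD8.1 and a gene higher in CD8.2 cells both held these letters. A match of letters is a description of the sequence and was not tested as a binding site.

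In wild-type mice, 7 of the 10 genes were called higher in B6 CD8+ than B6 CD4+ cells (edgeR quasi-likelihood test, adjusted P under 0.05 after Benjamini-Hochberg correction over all 13118 tested genes), and 0 were called higher in CD4+ cells. Of all tested genes, 11.7% were called higher in CD8+ and 11.4% higher in CD4+ cells. At an unadjusted P under 0.05, 0 members were higher in CD4+ cells, and DESeq2 and limma-voom also called 0. The 7 genes were *Prf1*, *Gzmm*, *Nkg7*, *Ctsw*, *Serpinb9*, *Ccl5* and *Xcl1*. In 5 of them, *Gzmm*, *Nkg7*, *Ctsw*, *Ccl5* and *Xcl1*, the difference exceeded 5-fold, as it did in that direction for 1.65% of tested genes. The 10 genes had a median log2 fold change (CD4+ over CD8+) of −2.06, and that of all tested genes was −0.0011. Markers of other cells and states differed between the same groups, and their part in these calls was not tested. Of the 6 memory and activation markers, *Cxcr3*, *Il2rb* and *Ly6c2* were called higher in CD8+ and *Klrg1* and *S100a4* in CD4+ cells, with a summed level of 1236 to 1567 CPM in CD8+ and 99.5 to 138 CPM in CD4+ cells. NK cell markers summed to 2.78 to 5.92 CPM against 0.955 to 2.17 CPM, with *Klrb1c* called higher in CD8+ cells. *Cd68* (myeloid), *Cd79b* (B cell) and *Tcrg-C1* (γδ T cell) were also called higher in CD8+ cells, and 4 of 5 regulatory T cell markers, 4 of 5 B cell markers and *Trdc* in CD4+ cells.

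In CD8Dual mice, where both populations carry CD8, the same 7 genes were called higher in CD8.2 cells and *Gzmb* was called higher in CD8.1 cells. Of all tested genes, 13.8% were called higher in CD8.2 and 14.9% in CD8.1 cells. The difference exceeded 5-fold in 4 of the 7 (*Gzmm*, *Nkg7*, *Ccl5* and *Xcl1*), against 1.07% of tested genes. The 10 genes had a median log2 fold change of −2.09, and that of all tested genes −0.00465. The memory and activation markers *Cxcr3*, *Il2rb* and *Ly6c2* and the NK cell marker *Klrb1c* were again called higher in the CD8-locus cells, and their part was not tested. The 6 memory and activation markers summed to 823 to 848 CPM in CD8.2 and 297 to 359 CPM in CD8.1 cells, and NK cell markers to 2.57 to 4.11 CPM and 2.91 to 3.85 CPM. *Klrg1*, *S100a4*, *S100a6*, *Fcer1g* (NK cell), 2 of 5 B cell markers, both tested NKT and γδ T cell markers and 2 of 5 proliferation markers were called higher in CD8.1 cells.

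**Figure D1:**
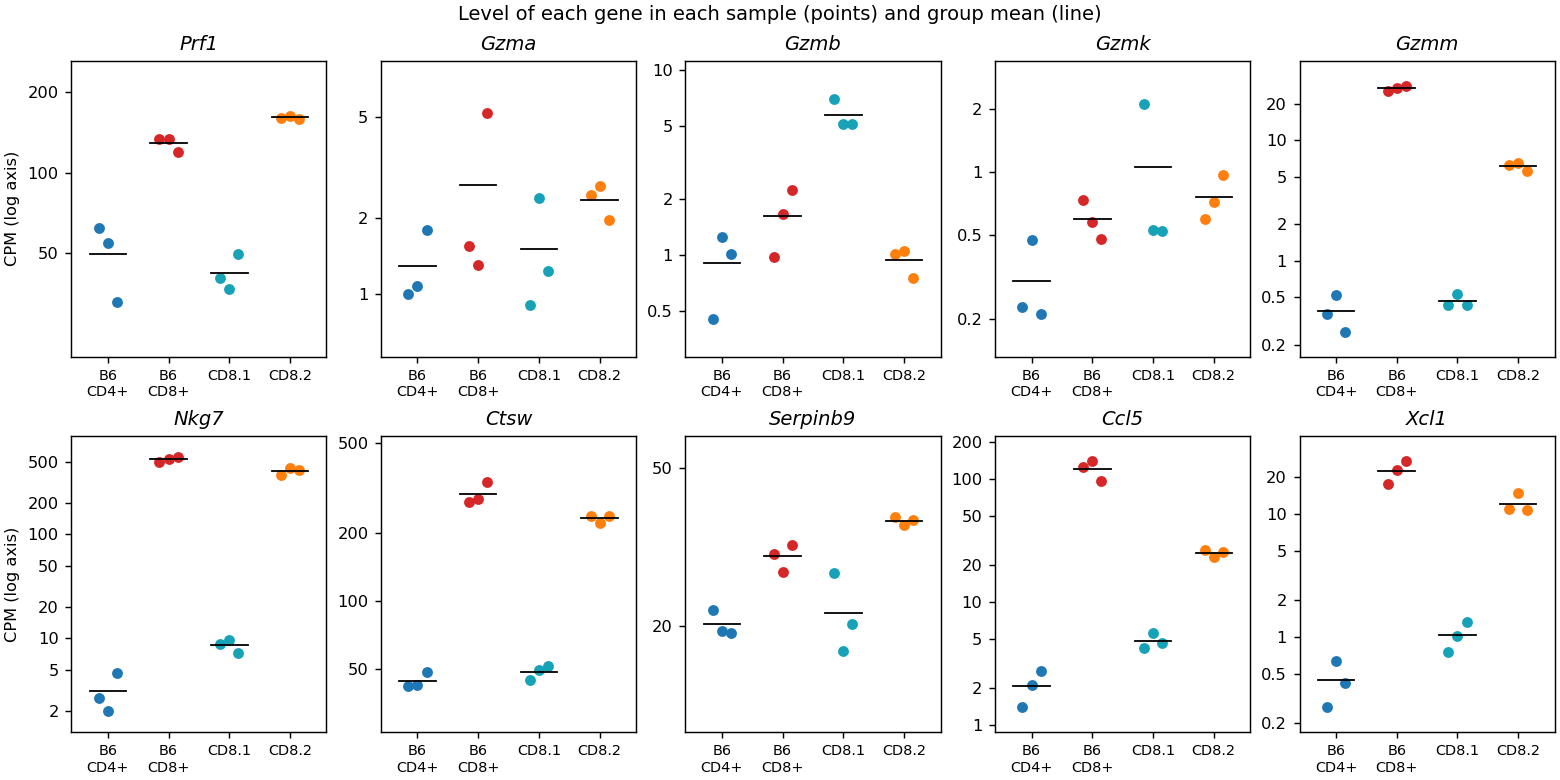
Level of the 10 genes in each sample, in CPM on a log axis whose range differs between panels, with 3 points per group and a line at the group mean. In *Prf1*, *Gzmm*, *Nkg7*, *Ctsw*, *Serpinb9*, *Ccl5* and *Xcl1* all samples of B6 CD8+ and CD8.2 cells lie above all samples of B6 CD4+ and CD8.1 cells, while in *Gzmb* the 3 CD8.1 samples, at 5.08 to 6.97 CPM, lie above the rest.

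Perforin (*Prf1*, ENSMUSG00000037202.5, chromosome 10, 61297833 to 61304680) was transcribed in every group, helper-type cells included. Its level was 61.9, 54.7 and 33.0 CPM in B6 CD4+ cells and 40.3, 36.9 and 49.6 CPM in CD8.1 cells. It was 133.8, 133 and 119.7 CPM in B6 CD8+ cells and 160.1, 163 and 159 CPM in CD8.2 cells. The CD4-locus groups overlapped each other and both lay below the CD8-locus groups, and B6 CD4+ replicate 3 was the lowest sample of all. The log2 fold change was −1.37 (SE 0.167, adjusted P = 1.56e-05, edgeR) for B6 CD4+ over CD8+ cells and −1.93 (SE 0.17, adjusted P = 5.78e-07) for CD8.1 over CD8.2 cells, equal to 2.58-fold and 3.8-fold lower levels. Of the 7 genes, only *Serpinb9* had a smaller difference in either strain. No difference between the strains was called within a lineage, with a log2 fold change of −0.24 (95% interval −0.60 to 0.12, adjusted P = 0.373) for CD8.1 over B6 CD4+ and 0.32 (interval −0.03 to 0.66, adjusted P = 0.256) for CD8.2 over B6 CD8+ cells. Without B6 CD4+ replicate 3 the former was −0.49 with an adjusted P of 0.0116. With only the 2 CD8-locus groups in the fit the latter had an adjusted P of 0.00316.

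Among the granzymes, *Gzmm* (ENSMUSG00000054206.2, chromosome 10, 79689020 to 79695261) showed the clearest lineage difference. Granzyme M is a protease that cuts after methionine and leucine and is best known from natural killer (NK) cells. Its level was 25.5, 27.4 and 28.4 CPM in B6 CD8+ cells and 6.26, 6.45 and 5.599 CPM in CD8.2 cells. It was 0.364, 0.517 and 0.255 CPM in B6 CD4+ cells, from 6 to 12 counts, and 0.430, 0.531 and 0.427 CPM in CD8.1 cells, from 9 to 12 counts. The 4 groups thus formed 3 levels, with B6 CD4+ and CD8.1 cells overlapping at the bottom and CD8.2 cells in between. Its log2 fold change was −6.14 (SE 0.187, adjusted P = 1.74e-12) in B6 and −3.70 (SE 0.195, adjusted P = 1.37e-09) in CD8Dual mice. CD8.2 cells held 22.5% of the B6 CD8+ mean, a log2 fold change of −2.16 (SE 0.131, adjusted P = 5.1e-07).

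Granzyme B, the main caspase-activating granzyme of killer cells, had a different pattern. *Gzmb* (ENSMUSG00000015437.4, chromosome 14, 56258838 to 56262260) was at 6.97, 5.13 and 5.08 CPM in CD8.1 cells, from 107 to 146 counts. It was at 0.455, 1.25 and 1.02 CPM in B6 CD4+ cells. B6 CD8+ cells had 0.983, 1.67 and 2.26 CPM, and CD8.2 cells had 1.02, 1.06 and 0.758 CPM. The 3 CD8.1 samples were above all 9 others, whose groups overlapped. On the log2 scale the difference was 2.62 (SE 0.336, adjusted P = 3.09e-05) for CD8.1 over CD8.2 cells and 2.64 (SE 0.337, adjusted P = 0.000229) for CD8.1 over B6 CD4+ cells, each about 6-fold. In B6 mice *Gzmb* had a log2 fold change of −0.83 (SE 0.358, adjusted P = 0.116) for CD4+ over CD8+ cells, and in a fit blocked by replicate number, which pairs the B6 samples, it was −0.85 with an adjusted P of 0.0382.

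Markers of other cells and states moved with *Gzmb* in CD8.1 cells, and their part in its level was not tested. The 5 regulatory T cell markers were all called higher in CD8.1 than CD8.2 cells and than B6 CD4+ cells, with a summed level of 350 to 385 CPM in CD8.1 and 133 to 185 CPM in B6 CD4+ cells, and of 54.0 to 59.9 CPM in the 6 CD8-locus samples. *Foxp3*, which defines regulatory T cells, was at 102, 149 and 168 CPM in CD8.1 replicates 1 to 3, against 32.6 to 44.6 CPM in B6 CD4+ cells. Replicate 1, the highest in *Gzmb*, was the lowest of the 3 in *Foxp3* and in *Tnfrsf18*, at 79.5 CPM against 94.7 and 80.1 CPM. It was the highest in *Ikzf2* (37.2 CPM against 22.7 and 21.6 CPM), *Il2ra* (102.1 CPM against 95.3 and 89.2 CPM) and *Ctla4* (29.55 CPM against 23.7 and 20.1 CPM). All 6 memory and activation markers were called higher in CD8.1 than B6 CD4+ cells (summed 297 to 359 against 99.5 to 138 CPM). So was *Cd44*, by a log2 fold change of 1.04 (SE 0.118, adjusted P = 8.02e-05). The same held, against 6.94% of all tested genes, for 4 of the 4 tested myeloid and dendritic cell markers, 2 of 5 B cell markers, 1 of 3 tested NK cell markers (*Fcer1g*), 1 of 2 tested NKT and γδ T cell markers and 1 of 5 proliferation markers. *Zbtb16*, which marks NKT cells, had 0 counts in all B6 samples and 0.191, 1.02 and 0.570 CPM in CD8.1 cells, a level too low to be tested. NK cell markers summed to 2.91 to 3.85 CPM in the CD8.1 samples, all above the 0.955 to 2.17 CPM of B6 CD4+ cells and within the range of B6 CD8+ cells, and of them the NK receptor *Ncr1* did not exceed 0.191 CPM in CD8.1 samples. Of the 3 mast cell and basophil markers, *Mcpt8* and *Fcer1a* had 0 counts in every sample, and *Cpa3* had 3, 2 and 0 counts in CD8.1 cells and 0 to 3 in the other samples.

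*Gzma* was low, with 19 to 108 counts per sample, and *Gzmk* was nearer the floor of 3 counts. Granzyme A is a tryptase that acts independently of caspases, and *Gzmk*, its neighbour 70626 bases away on chromosome 13, encodes a related tryptase. *Gzma* (ENSMUSG00000023132.7, 113093825 to 113100981) was at 1.00, 1.08 and 1.79 CPM in B6 CD4+ and 0.907, 2.39 and 1.23 CPM in CD8.1 cells. B6 CD8+ cells had 1.56, 1.31 and 5.20 CPM, and CD8.2 cells had 2.47, 2.67 and 1.95 CPM. The highest sample was B6 CD8+ replicate 3, the library with the highest proliferation markers, and the other 11 samples lay between 0.907 and 2.67 CPM. No comparison was called for *Gzma*, and the log2 fold changes were −1.03 (95% interval −2.05 to −0.01, adjusted P = 0.149) in B6 and −0.62 (interval −1.64 to 0.39, adjusted P = 0.357) in CD8Dual mice. Without B6 CD8+ replicate 3 the difference in B6 mice was −0.15 (adjusted P = 0.847), and with no filter on low counts it was −1.03 with an adjusted P of 0.00489. *Gzmk* (ENSMUSG00000042385.14, 113171608 to 113225908) had 5 to 44 counts per sample. It was at 0.227, 0.474 and 0.213 CPM in B6 CD4+ and 2.10, 0.531 and 0.522 CPM in CD8.1 cells. B6 CD8+ cells had 0.737, 0.582 and 0.481 CPM, and CD8.2 cells had 0.596, 0.722 and 0.962 CPM. The group mean was highest in CD8.1 cells through replicate 1 alone. Its log2 fold change was −0.97 (SE 0.589, adjusted P = 0.284) in B6 mice, 0.44 (SE 0.496, adjusted P = 0.552) in CD8Dual mice, where it was −0.56 without that sample, and 1.76 (SE 0.564, adjusted P = 0.0525) for CD8.1 over B6 CD4+ cells. The last value was 0.76 (adjusted P = 0.282) without CD8.1 replicate 1, and it was called without CD8.1 replicate 2 or 3 (adjusted P of 0.0437 and 0.0303), with no filter on low counts (0.00589) and with DESeq2 (0.0302). The annotation places *Esm1* on the other strand of *Gzmk*, and use of strand in counting is not given in the sources used here.

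Of the 6 other granzyme genes, all in the cluster of *Gzmb* on chromosome 14, only *Gzmc* passed the filter on low counts. *Gzmc*, 24181 bases from *Gzmb*, was at 1.41, 1.81 and 3.40 CPM in B6 CD4+ and 1.86, 2.39 and 2.28 CPM in CD8.1 cells, against 0.287 to 0.433 CPM in B6 CD8+ and 0.167 to 0.298 CPM in CD8.2 cells. It was called higher in both CD4-locus groups, with log2 fold changes of 2.66 (SE 0.381, adjusted P = 8.04e-05) in B6 and 3.04 (SE 0.397, adjusted P = 3.74e-05) in CD8Dual mice. *Gzmb* and *Gzmc* therefore shared high values in CD8.1 cells and differed in B6 CD4+ cells, where *Gzmb* was at the level of the other groups. *Gzmd*, *Gzme*, *Gzmg* and *Gzmn* had 0 counts in every sample, and *Gzmf* had 3 counts in all, in CD8.1 cells. Granzymes of this cluster are similar in sequence. Whether reads that match several genes were divided or dropped in the deposited whole-number counts is not given, so that their split is uncertain.

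*Nkg7* had the largest lineage difference of the 10 genes in both strains. NKG7 is a membrane protein of cytotoxic granules that takes part in their release. *Nkg7* (ENSMUSG00000004612.9, chromosome 7, 43437073 to 43438249) was at 494, 532 and 549.7 CPM in B6 CD8+ and 371, 434 and 417 CPM in CD8.2 cells. It was at 2.68, 2.03 and 4.68 CPM in B6 CD4+ and 8.83, 9.64 and 7.22 CPM in CD8.1 cells, and no group overlapped another. Its log2 fold change was −7.38 (SE 0.204, adjusted P = 6.07e-13) in B6 mice, 167-fold, and −5.57 (SE 0.182, adjusted P = 7.71e-12) in CD8Dual mice, 47.5-fold. CD8.1 cells exceeded B6 CD4+ cells by a log2 fold change of 1.45 (SE 0.206, adjusted P = 0.000546) and still held 1.63% of the B6 CD8+ mean. CD8.2 over B6 CD8+ cells gave −0.37 (SE 0.143, adjusted P = 0.133, edgeR), and 16 of 20 alternatives also made no call. It was called by limma-voom (adjusted P = 0.028). In edgeR it was called with no filter on low counts (0.00175), with only the groups compared (0.00259) and without B6 CD4+ replicate 3 (0.0217).

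*Ctsw* encodes cathepsin W, a papain-type protease of killer lymphocytes. *Ctsw* (ENSMUSG00000024910.4, chromosome 19, 5465043 to 5468507) was at 275, 283 and 335 CPM in B6 CD8+ and 237, 222 and 238 CPM in CD8.2 cells. It was at 42.3, 42.5 and 48.4 CPM in B6 CD4+ and 44.6, 49.8 and 51.9 CPM in CD8.1 cells, so that CD4-locus cells held a substantial level too. Cathepsin W transcripts thus had a log2 fold change of −2.74 (SE 0.0952, adjusted P = 8.01e-12) in B6 and −2.25 (SE 0.0936, adjusted P = 1.03e-10) in CD8Dual mice. It was lower in CD8.2 than B6 CD8+ cells by a log2 fold change of −0.36 (SE 0.0881, adjusted P = 0.0228), a call that was lost without B6 CD8+ replicate 3 (adjusted P = 0.0628) or without any 1 of CD8.2 replicates 1, 2 and 3 (adjusted P of 0.059, 0.104 and 0.0697). *Fibp* overlaps *Ctsw* on the other strand.

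*Serpinb9* encodes an inhibitor of granzyme B that protects cells from their own or neighbouring granules, and it had the smallest of the called lineage differences. *Serpinb9* (ENSMUSG00000045827.10, chromosome 13, 33003250 to 33017957) was at 21.9, 19.4 and 19.2 CPM in B6 CD4+ and 27.3, 17.3 and 20.2 CPM in CD8.1 cells. It was at 30.4, 27.3 and 32.0 CPM in B6 CD8+ and 37.6, 35.9 and 36.9 CPM in CD8.2 cells. CD8.1 replicate 1 came within 0.1 CPM of the lowest B6 CD8+ sample. The difference on the log2 scale was −0.57 (SE 0.131, adjusted P = 0.0046) in B6 and −0.77 (SE 0.13, adjusted P = 0.00039) in CD8Dual mice. CD8.1 cells, with the highest *Gzmb*, had no called difference in *Serpinb9* from B6 CD4+ cells (log2 fold change 0.10, 95% interval −0.19 to 0.38, adjusted P = 0.676).

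*Ccl5* and *Xcl1* encode chemokines that killer cells store or release on activation. CCL5 draws T cells and monocytes, and XCL1 draws the cross-presenting dendritic cells that bear XCR1. *Ccl5* (ENSMUSG00000035042.2, chromosome 11, 83525778 to 83530518) was at 126, 141 and 97.8 CPM in B6 CD8+ and 26.6, 23.2 and 25.5 CPM in CD8.2 cells. It was at 1.41, 2.11 and 2.76 CPM in B6 CD4+ and 4.20, 5.62 and 4.65 CPM in CD8.1 cells, and no group overlapped another. The lineage difference was −5.85 (SE 0.193, adjusted P = 4.43e-12) on the log2 scale in B6 and −2.38 (SE 0.172, adjusted P = 5.4e-08) in CD8Dual mice. Both sides moved, with CD8.2 below B6 CD8+ cells by a log2 fold change of −2.27 (SE 0.149, adjusted P = 6.41e-07) and CD8.1 above B6 CD4+ cells by 1.20 (SE 0.219, adjusted P = 0.0032).

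*Xcl1* (ENSMUSG00000026573.7, chromosome 1, 164931644 to 164935527) was at 17.6, 22.8 and 26.9 CPM in B6 CD8+ and 11.03, 14.8 and 10.7 CPM in CD8.2 cells. It was at 0.273, 0.647 and 0.425 CPM in B6 CD4+ and 0.764, 1.02 and 1.33 CPM in CD8.1 cells, from 6 to 15 and 16 to 28 counts. All 4 groups were apart. The log2 fold change was −5.62 (SE 0.272, adjusted P = 3.93e-10) in B6 and −3.54 (SE 0.245, adjusted P = 3.31e-08) in CD8Dual mice. CD8.2 cells were below B6 CD8+ cells by −0.89 (SE 0.185, adjusted P = 0.00907), which without CD8.2 replicate 3 had an adjusted P of 0.0576. CD8.1 cells were above B6 CD4+ cells by 1.19 (SE 0.369, adjusted P = 0.0462), a call lost without any of 7 samples (B6 CD4+ replicates 1 and 3, B6 CD8+ replicate 2, CD8.1 replicates 2 and 3, CD8.2 replicates 1 and 3), with adjusted P values of 0.0542 to 0.173, and with limma-voom (adjusted P = 0.178). *Gm20743* overlaps *Xcl1* on the other strand.

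**Figure D2:**
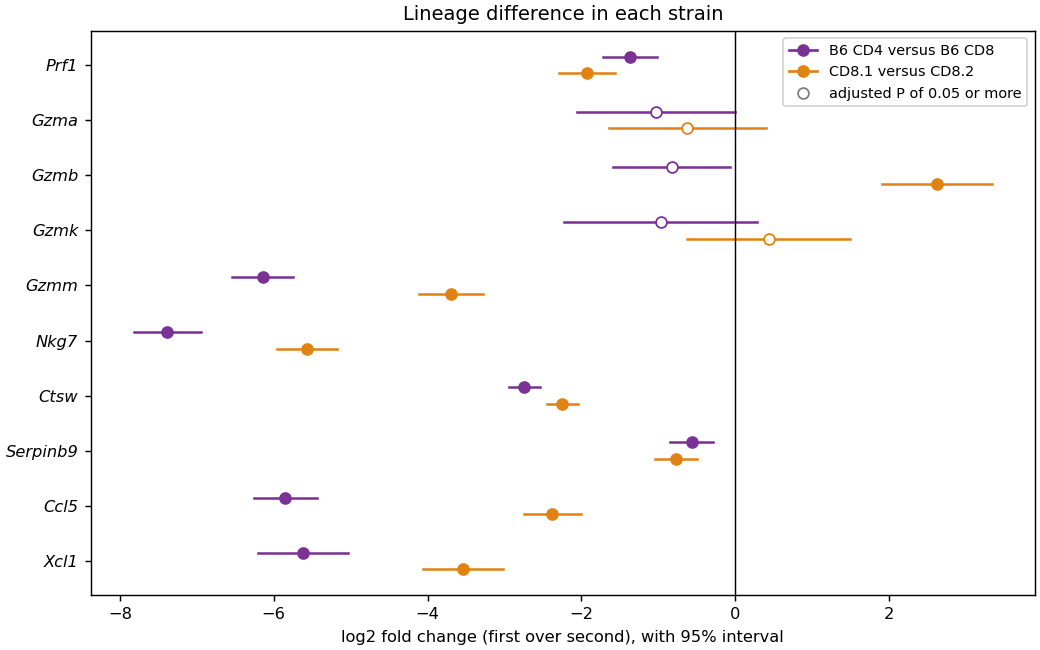
Log2 fold change of each gene for B6 CD4+ over CD8+ cells and for CD8.1 over CD8.2 cells (x axis), with 95% intervals and open points where the adjusted P was 0.05 or more. *Gzmb* is the gene whose called difference lies to the right of 0, at 2.62 in CD8Dual mice, and *Nkg7* lies farthest to the left, at −7.38 in B6 mice.

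Relative to the transcript, levels can be compared between genes as CPM per kilobase of exon. In B6 CD8+ cells *Nkg7* led with 575 ± 31.2 (SD, n = 3) CPM per kilobase, followed by *Ctsw* at 158 ± 17.4, *Ccl5* at 127 ± 22.7, *Prf1* at 49.9 ± 3.07 and *Xcl1* at 42.9 ± 8.90. *Ctsw* and *Ccl5*, and *Prf1* and *Xcl1*, were neighbours within their spread. *Gzmm* at 18.4 ± 1.02 was the highest granzyme, and *Gzma*, *Gzmb* and *Gzmk* lay at 2.67 ± 2.16, 1.14 ± 0.446 and 0.432 ± 0.0928. In CD8.2 cells the first places went to *Nkg7* at 446 ± 35.6, *Ctsw* at 123 ± 4.84 and *Prf1* at 62.1 ± 0.752, with *Ccl5* at 26.2 ± 1.80 now below *Prf1*. In the CD4-locus groups *Ctsw* and *Prf1* came first, with 23.5 ± 1.83 and 19.3 ± 5.84 in B6 CD4+ and 25.9 ± 1.98 and 16.4 ± 2.54 in CD8.1 cells, and *Gzmb* at 3.99 ± 0.749 was the highest granzyme of CD8.1 cells. A level over 1 CPM in every sample, on the scale without length, was reached by 6 of the 10 genes in each CD4-locus group and by 8 in each CD8-locus group. *Gzma* was among the 6 in B6 CD4+ and *Gzmb* in its place in CD8.1 cells. A level over 100 CPM was reached by *Prf1*, *Nkg7* and *Ctsw* in CD8.2 cells and by the same 3 in B6 CD8+ cells, where *Ccl5* fell short of it in replicate 3.

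**Figure D3:**
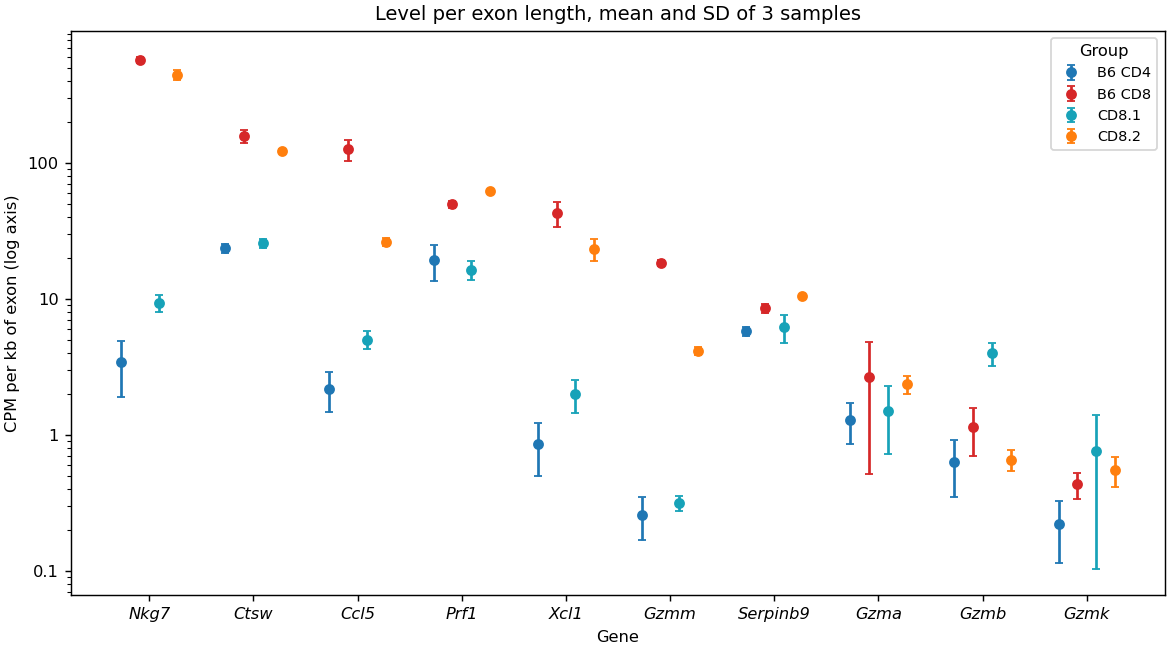
Mean and SD (n = 3) of each gene in each group, in CPM per kilobase of exon on a log axis, with genes ordered by their level in B6 CD8+ cells. *Nkg7* (575) and *Ctsw* (158) lead in B6 CD8+ cells, while in CD4-locus cells *Ctsw* and *Prf1* are the highest.

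Between the helper-type groups of the strains, 4 of the 10 genes (*Gzmb*, *Nkg7*, *Ccl5* and *Xcl1*) were called higher in CD8.1 than B6 CD4+ cells, against 6.94% of tested genes, and 0 were called lower, against 5.82%. At an unadjusted P under 0.05, 0 members were lower, and DESeq2 and limma-voom also called 0. The 10 genes had a median log2 fold change of 0.74, and that of all tested genes 0.0025. With each sample left out in turn, 3 to 4 were called higher. Regulatory T cell, memory and other markers rose between these groups as given for *Gzmb*.

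Between the cytotoxic-type groups, 4 of the 10 genes (*Gzmm*, *Ctsw*, *Ccl5* and *Xcl1*) were called lower in CD8.2 than B6 CD8+ cells, against 4.66% of tested genes, and 0 were called higher, against 3.29%. *Serpinb9* was higher at an unadjusted P under 0.05 (1 gene), and DESeq2 and limma-voom called 0 members higher. The median log2 fold change was −0.36, and that of all tested genes −0.00355. The count of lower genes was 3 without B6 CD8+ replicate 3 and 2 without CD8.2 replicate 3, and *Gzmm* and *Ccl5* had the largest differences. *Gzmm* and *Ccl5* fell to 22.5% and 20.7% of the B6 CD8+ mean, while *Prf1* stood above it (129 against 160.5 CPM) with no call. Of the 6 memory and activation markers 3 were called lower in CD8.2 cells (*Il2rb*, *Ly6c2* and *S100a6*), with a summed level of 823 to 848 against 1236 to 1567 CPM, and *Tcrg-C1* (γδ T cell) was lower too. *Cd79a* and *Ms4a1* (B cell), *Lyz2* (myeloid), and *Ctla4* and *Foxp3* (regulatory T cell) were called higher in CD8.2 cells, where *Foxp3* did not exceed 1.46 CPM. The part of these markers in the differences was not tested.

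**Figure D4:**
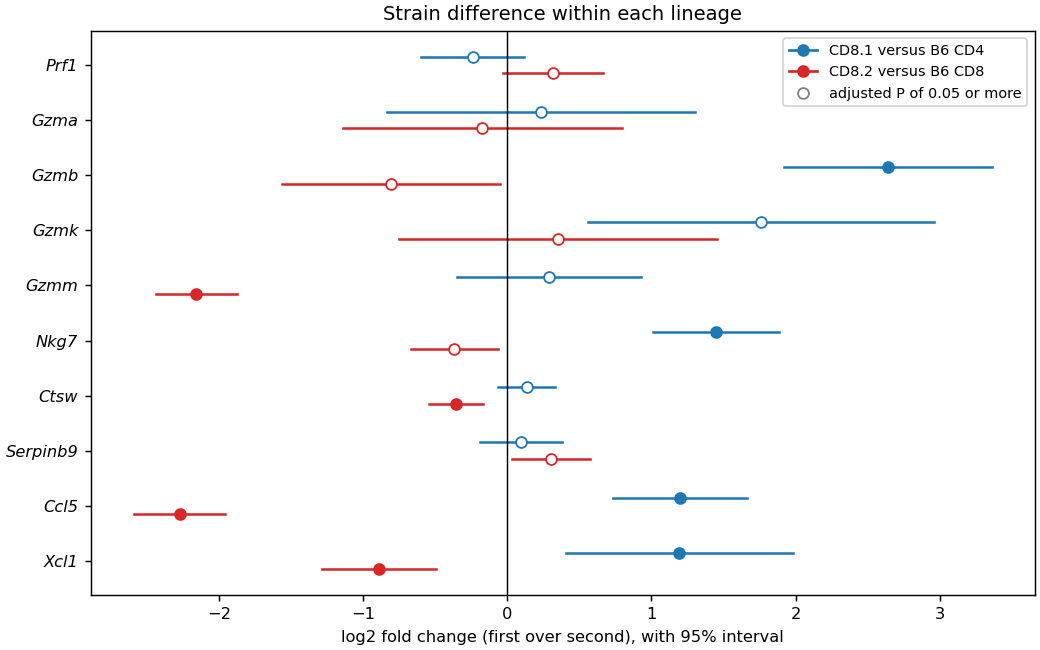
Log2 fold change of each gene for CD8.1 over B6 CD4+ cells and for CD8.2 over B6 CD8+ cells (x axis), with 95% intervals and open points where the adjusted P was 0.05 or more. *Gzmb* stands farthest to the right in CD8.1 cells (2.64), and *Ccl5* and *Gzmm* farthest to the left in CD8.2 cells (−2.27 and −2.16).

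The lineage difference itself was compared between the strains as CD8.1 minus CD8.2 less B6 CD4+ minus CD8+, a positive value meaning a shift toward the CD4-locus cells in CD8Dual mice. It was called in 5 of the 10 genes, all positive, against 1.58% of tested genes, and 0 were called negative, against 0.29%. *Prf1* was negative at an unadjusted P under 0.05 (1 gene), and DESeq2 and limma-voom called 0 negative members. The values were 3.47 (SE 0.261, adjusted P = 1.36e-06) for *Ccl5*, 3.45 (SE 0.49, adjusted P = 0.000978) for *Gzmb*, 2.45 (SE 0.332, adjusted P = 0.000678) for *Gzmm*, 2.08 (SE 0.411, adjusted P = 0.0128) for *Xcl1* and 1.81 (SE 0.251, adjusted P = 0.000801) for *Nkg7*. In *Gzmb* the estimates had opposite signs, −0.83 in B6 and 2.62 in CD8Dual mice, but the one in B6 mice was not called (adjusted P = 0.116, edgeR). The other 4 were called higher in CD8-locus cells of both strains, and the difference was smaller in CD8Dual mice. The markers *Cxcr3*, *Il2rb*, *Ly6c2* and *S100a6* (memory and activation), *Cd44*, *Ikzf2* (regulatory T cell) and *Tcrg-C1* were called positive in the same test, and their part was not tested. The value for *Xcl1* had an adjusted P of 0.107 with limma-voom and 0.0529 without CD8.1 replicate 3. *Ctsw* gave 0.49 (SE 0.128, adjusted P = 0.067), and 0.49 with an adjusted P of 0.0283 with the replicate block. That block also covered the CD8Dual samples, whose replicate numbers were not taken as pairs. *Prf1* gave −0.56 (SE 0.233, adjusted P = 0.319), which without B6 CD4+ replicate 3 was −0.80 with an adjusted P of 0.0112.

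The other genes of the programme were described by lists, with *Gzmc* and its cluster given above. Their counts stand beside shares over all tested genes of 11.4% higher and 11.7% lower in B6 CD4+ than CD8+ cells, and of 14.9% higher and 13.8% lower in CD8.1 than CD8.2 cells. Of 8 genes of granule content and protease maturation, 2 were called higher and 2 lower in B6 CD4+ cells, and 2 higher and 1 lower in CD8.1 than CD8.2 cells. Serglycin (*Srgn*), the proteoglycan that holds granzymes in the granule, had no called lineage difference. It was at 258.5 to 300 CPM in the B6 samples and 317 to 386 CPM in the CD8Dual samples. *Srgn*, *Calr*, *Ctsc* and *Ctsh* were called higher in CD8.1 than B6 CD4+ cells (4 of 8, against 6.94% of tested genes), and 0 lower (5.82%). In CD8.2 over B6 CD8+ cells *Srgn* was not called. *Ctsc*, whose product activates granzymes by trimming them, was lower in B6 CD4+ than CD8+ cells by a log2 fold change of −0.46 (SE 0.091, adjusted P = 0.0014) and gave −0.23 (adjusted P = 0.074) in CD8Dual mice. *Lamp1*, known as the degranulation marker CD107a, was at 179.8 to 237 CPM and not called in any comparison.

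Of 9 genes of the exocytosis machinery, 3 were called higher and 1 lower in B6 CD4+ cells (11.4% and 11.7% of all tested genes), and 4 higher and 1 lower in CD8.1 than CD8.2 cells (14.9% and 13.8%). *Stx11*, a syntaxin needed for granule fusion, was higher in CD4-locus cells by log2 fold changes of 1.20 (SE 0.226, adjusted P = 0.000951) in B6 and 1.42 (SE 0.211, adjusted P = 0.00013) in CD8Dual mice. *Lyst*, a regulator of lysosome size, was lower by −0.73 (SE 0.144, adjusted P = 0.00139) and −1.13 (SE 0.146, adjusted P = 3.5e-05). *Unc13d*, which primes granules, had no called lineage difference but was called lower in CD8Dual than B6 mice within both lineages. It stood at 94.7 to 104 CPM in the B6 samples and 73.0 to 89.1 CPM in the CD8Dual samples. Of the 9 genes, 1 was called higher and 2 lower in CD8.1 than B6 CD4+ cells (6.94% and 5.82% of all tested genes). In CD8.2 against B6 CD8+ cells, 0 were called higher and 3 lower (3.29% and 4.66%). The median log2 fold changes of this list were −0.03 and 0.20 in the 2 strains, beside −2.06 and −2.09 for the 10 genes.

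Of 10 other clade B and granzyme-related serpins, 5 were tested, of which 1 was called higher and 1 lower in B6 CD4+ cells, and 0 higher and 1 lower in CD8.1 than CD8.2 cells. *Serpinb6b*, a neighbouring serpin gene, was lower in CD4-locus cells by −1.32 (SE 0.159, adjusted P = 1.38e-05) and −0.72 (SE 0.155, adjusted P = 0.00275). *Serpina3g* differed by strain rather than lineage, with 1.77 to 3.53 CPM in the 6 B6 samples and 8.07 to 10.7 CPM in the 6 CD8Dual samples, log2 fold changes of 1.93 (SE 0.219, adjusted P = 8.02e-05) in the CD4-locus and 1.43 (SE 0.211, adjusted P = 0.00087) in the CD8-locus cells.

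Of the 4 tested death ligands and cytokines, 3 (*Fasl*, *Lta* and *Tnf*) were called higher in B6 CD4+ cells and in CD8.1 cells, and *Tnfsf10* was called lower in both. *Fasl*, which kills through the death receptor Fas, was at 7.44 to 7.64 CPM in B6 CD4+ and 4.60 to 7.50 CPM in CD8.1 cells, against 1.59 to 2.09 CPM in B6 CD8+ and 0.437 to 1.06 CPM in CD8.2 cells. Its log2 fold changes were 2.07 (SE 0.238, adjusted P = 8.78e-06) and 3.13 (SE 0.272, adjusted P = 4.99e-07). *Ifng* did not exceed 0.529 CPM in any sample and was not tested.

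Of the 2 tested chemokine partners and receptors reported here, *Ccl4* was called higher in CD8-locus cells and *Ccr3* in CD4-locus cells, in both strains. *Ccl4*, 132065 bases from *Ccl5*, was at 3.15 to 3.99 CPM in B6 CD8+, 1.46 to 2.00 CPM in CD8.2 cells. CD8.1 cells had 0.190 to 0.221 CPM, and B6 CD4+ cells had counts in 1 of 3 samples. *Ccr3* had 53 to 67 counts in CD8.1 (2.52 to 2.96 CPM) and 0 to 3 counts in CD8.2 cells. In B6 mice it had 3 to 11 counts in CD4+ (0.136 to 0.474 CPM) and 0 in CD8+ cells, so that its call there rests on few counts.

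Of the 8 tested transcriptional regulators, 5 were called lower in B6 CD4+ cells (*Tbx21*, *Eomes*, *Runx3*, *Hopx* and *Id2*) and 2 higher (*Zbtb7b* and *Prdm1*). The T-box factors T-bet (*Tbx21*) and Eomes drive perforin and granzyme genes in killer cells. *Tbx21* was at 30.6 to 37.4 CPM in B6 CD8+ and 13.8 to 15.5 CPM in CD8.2 cells and at 0.955 to 2.00 CPM in the 6 CD4-locus samples, with a called difference between CD8.2 and B6 CD8+ cells of −1.18 (SE 0.145, adjusted P = 0.000236). *Eomes* was at 69.4 to 113 CPM in B6 CD8+ and 75.6 to 81.0 CPM in CD8.2 cells, with no call between them (log2 fold change −0.14, adjusted P = 0.702). *Zbtb7b*, encoding the helper factor ThPOK, was at 117 to 173 CPM in both CD4-locus groups and at most 2.11 CPM in the CD8-locus groups. In CD8Dual mice 4 regulators were called lower (*Tbx21*, *Eomes*, *Runx3* and *Hopx*) and 3 higher (*Zbtb7b*, *Prdm1* and *Bhlhe40*) in CD8.1 cells. The lineage difference shifted between the strains for *Hopx*, by 1.62 (SE 0.149, adjusted P = 1.46e-05), and for *Bhlhe40*, by 1.81 (SE 0.396, adjusted P = 0.0248).

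**Figure D5:**
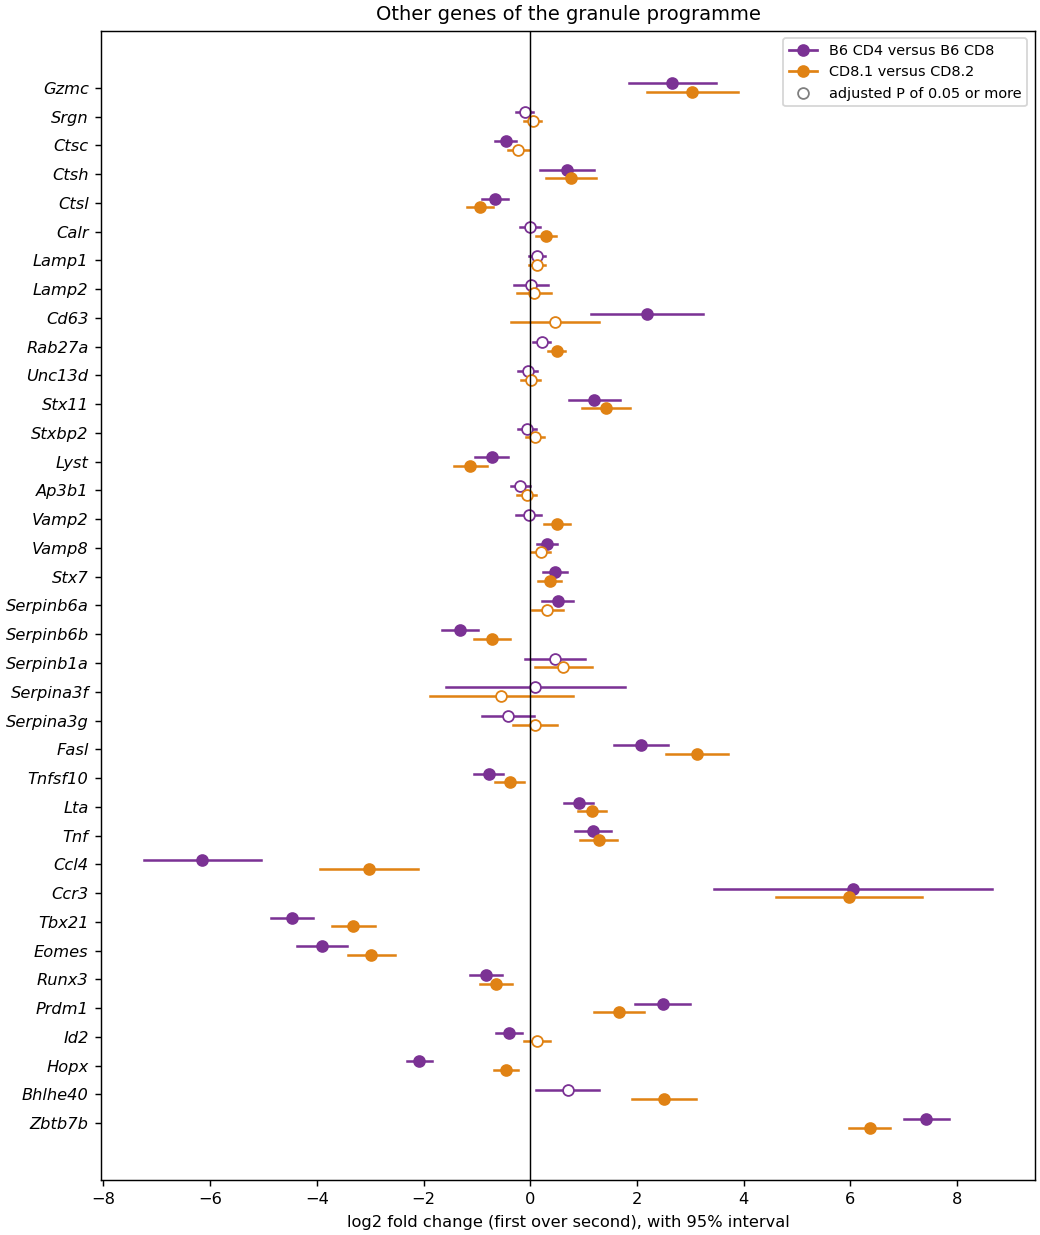
Log2 fold change of the tested genes of the other lists for B6 CD4+ over CD8+ and for CD8.1 over CD8.2 cells (x axis), with 95% intervals and open points where the adjusted P was 0.05 or more. *Gzmc*, *Fasl* and *Ccr3* lie to the right of 0 with *Zbtb7b*, while *Ccl4*, *Tbx21* and *Eomes* lie to the left, and most genes of the release machinery lie near 0.

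Over the 12 samples, the genes whose log2 CPM followed *Prf1* most closely were *Stat4* (Pearson's r = 0.988), *Tle4* (0.982), *Gm45669* (0.978), *Cdadc1* (0.975) and *Eef2k* (0.971). *Stat4* averaged 40.2 ± 8.19 CPM (SD, n = 3) in B6 CD4+ and 39.2 ± 4.69 CPM in CD8.1 cells, against 84.0 ± 2.62 CPM in B6 CD8+ and 94.4 ± 2.35 CPM in CD8.2 cells, the order of the groups in *Prf1*. The genes closest to *Gzmb* were *Ptger2* (r = 0.949), *Rnf144b* (0.947), *Lclat1* (0.938), *S100a6* (0.93) and *Axl* (0.925). *S100a6* averaged 44.2 ± 8.23 CPM in CD8.1 cells against 5.47 to 9.60 CPM in the other groups. In some groups 2 of these genes were at or below the floor, so that their r rests partly on very few counts. *Gm45669* averaged 0.060 CPM in B6 CD4+ and 0.078 CPM in CD8.1 cells. *Rnf144b* averaged 0.057, 0.117 and 0.072 CPM in B6 CD4+, B6 CD8+ and CD8.2 cells. All these r values describe 12 samples that share 4 groups, so that a gene that separates the groups alike has a high r.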

How the data were processed

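RNA-seq of the 12 samples was analysed from the deposited raw counts. Per the labels and the study's methods, the authors made libraries with a low-input template-switching kit, aligned read pairs to mm10 with STAR and produced counts per gene with RSEM. The deposited counts are whole numbers without normalization. Tool versions, annotation release and use of strand in counting are not given in the sources used here. Groups and replicate numbers came from the sample labels.

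Counts were tested in R 4.3.3 with edgeR 4.0.16 (TMM, filterByExpr, glmQLFit and glmQLFTest). All 12 samples entered 1 model with a mean per group, 13118 of 49585 genes were tested, and P values were adjusted by the Benjamini-Hochberg method over all of them. A gene was called at an adjusted P under 0.05. In all, 5 comparisons were made. The 10 genes and the other lists were chosen with earlier results of these data known. All members of the fixed lists could be named, and the 5 genes nearest to *Prf1* and *Gzmb* by Pearson's r were named. *Vamp7* was the 1 listed gene without a row, and 1 gene of the chemokine list is not reported here. Gene positions and exon lengths came from GENCODE M21 (GRCm38), whose release may differ from that used for counting.

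Same-numbered samples deviated together in B6 mice (r of deviations from the group means 0.126, 0.138 and 0.257, all over 0.1). The labels' numbers were therefore taken to pair them. In CD8Dual mice only replicate 3 was over 0.1 (−0.00388, 0.0905 and 0.119), and the numbers were not taken as pairs. The main model held no block in either strain. No replicates differed by as little as sampling noise (chi-square per gene 8.76 to 87.1). The alternatives tried were the study's limits for differential expression (over 5-fold, unadjusted P under 0.05), DESeq2 1.42.0 (Wald test, or size factors within edgeR), limma-voom (limma 3.58.1), a filter at a mean of 1 CPM or none, only the groups compared, the replicate block, and each sample left out in turn. Before use, the model was tested on simulated data. Figures were drawn with matplotlib 3.10.9.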

Additional observations from a re-analysis of the deposited data

Results flagged for a closer look

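In 14 of the listed genes, with the co-receptor genes left aside, the lineage difference in CD8Dual mice (CD8.1 over CD8.2) differed from that in B6 mice (CD4+ over CD8+) by edgeR's test of the difference itself. Among the 10 cytotoxic genes, the log2 values of CD8Dual minus B6 were 3.47 for *Ccl5*, 3.45 for *Gzmb*, 2.45 for *Gzmm*, 2.08 for *Xcl1* and 1.81 for *Nkg7*. Among the other genes of the programme they were 1.81 for *Bhlhe40* and 1.62 for *Hopx*. Among the markers of other cells and states they were 3.63 for *Tcrg-C1*, 3.19 for *S100a6*, 2.95 for *Ly6c2*, 2.65 for *Ikzf2*, 1.93 for *Il2rb*, 1.51 for *Cxcr3* and 0.92 for *Cd44*. All 14 were positive, and of the co-receptor genes left aside *Cd8a* and *Cd8b1* were called positive and *Cd4* negative. Over all 13118 tested genes, 207 (1.58%) were called positive and 38 (0.29%) negative, so that most calls of this test were positive. In *Ccl5*, *Gzmm*, *Xcl1*, *Nkg7*, *Hopx*, *Ly6c2*, *Il2rb* and *Cxcr3* the gene was called higher in CD8-locus cells of both strains. *Gzmb* was called in CD8Dual mice with the highest level in CD8.1 cells, and *Bhlhe40* likewise. What sets these differences was not tested.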

How the results depend on the processing

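Of 984 log2 fold changes of the 10 genes under the alternatives, 923 kept their direction and their side of the threshold. The limits of the study were applied to the main fit, so that their fold changes are the main ones under another cutoff. In many fits without 1 sample, that sample lay outside the groups compared. By the limits of over 5-fold and an unadjusted P under 0.05, 4 members were higher in CD8.2 than CD8.1 cells, against 1.07% of tested genes. By the same limits 1 was higher in CD8.1 than B6 CD4+ cells, 0 were lower in CD8.2 than B6 CD8+ cells, and 3 had a positive difference between strains. For these comparisons between strains the share over all tested genes at those limits was not computed. Without a filter on low counts, *Prf1* became the 1 member called higher in CD8.2 than B6 CD8+ cells and the 1 with a negative difference between strains, and with only the groups compared, 2 were called higher in CD8.2 than B6 CD8+ cells (*Prf1* and *Serpinb9*).

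With each sample left out in turn, the called members numbered 0 to 1 lower in CD8.1 than B6 CD4+ cells, 0 to 1 higher and 2 to 5 lower in CD8.2 than B6 CD8+ cells, and 0 to 1 with a negative difference between strains. Of the 13363 to 13495 genes tested there, 765 to 2958, 431 to 1913 and 165 to 1356 were called in these comparisons, both directions together. The log2 fold change of *Gzmk* in CD8.1 over CD8.2 cells ranged from −0.56 to 0.76. Over B6 CD4+ cells, CD8.1 cells gave −0.27 to 0.52 for *Gzma* and −0.12 to 0.24 for *Serpinb9*. *Gzma* gave −0.52 to 0.70 for CD8.2 over B6 CD8+ cells, where limma-voom gave 0.13, and −0.48 to 0.73 for the difference between strains. None of these *Gzma*, *Gzmk* and *Serpinb9* values was called. The causes were not tested.

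With the replicate block within each strain, 8 members were called higher in B6 CD8+ cells through *Gzmb* (log2 fold change −0.85), 6 had a positive difference between strains through *Ctsw* (0.49), and the block changed no other call of the 10 genes. In CD8Dual mice the block used numbers that were not taken as pairs. Of all 13118 tested genes, this block called 3194 in B6 mice and 330 for the difference between strains, both directions together. Depth limited *Gzmk* most, with 5 to 44 counts per sample, and it had no value at a mean of at least 1 CPM. *Gzmm* had no value for CD8.1 over B6 CD4+ cells with only the groups compared, since it did not pass the filter there.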
